A study of Mus musculus with 9 samples.

Results

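The 8 genes described here make up the machinery by which MHC class II molecules present peptides: the chains H2-Aa, H2-Ab1 and H2-Eb1, the invariant chain Cd74, the peptide editor H2-DMa and H2-DMb1, the protease gene Ctss and the transcriptional coactivator Ciita. They were chosen by name, and every probe set that the platform annotation assigns to them was taken, 17 of the 45101 on the array. Of the 8 genes, 6 were among the 9697 genes that could be tested. Ciita did not pass the filter on dim probe sets, and both probe sets of H2-DMb1 also name its near-copy H2-DMb2, so no value could be given to H2-DMb1 alone.

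The study profiled quadriceps femoris, a thigh muscle, from 9 female C57Bl/6 HT transgenic mice, 3 in each of 3 groups. In HT mice the transgene encodes a self MHC class I molecule. Doxycycline, an antibiotic, keeps it off, and it is expressed once the drug is withdrawn. Late mice (n = 3) received doxycycline up to day 35 and were killed at 50 days of age, 15 days after withdrawal. Early mice (n = 3) received it up to day 21 and were killed at 35 days, after 2 weeks of transgene expression. Control mice (n = 3) stayed on doxycycline and were killed at 35 days. The protocol describes the controls as littermates carrying a single transgene, while all 9 strain labels are the same, so drug, transgene expression and any difference in genotype cannot be told apart. Late mice were also 15 days older than the controls, and there age and induction cannot be told apart either. Values are log2 expression as deposited, with group means ± SD (n = 3), and differences are log2 differences ± SE from limma, with p-values adjusted over all 9697 genes by Benjamini-Hochberg.

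MHC class II molecules are pairs of an alpha and a beta chain that carry peptides from proteins taken up by a cell to its surface, where CD4+ T cells read them. Dendritic cells, macrophages and B cells make them constantly. Other cells, muscle fibres among them, can be brought to make them by interferon gamma through the coactivator CIITA. The invariant chain fills the groove of a new class II pair until endosomal proteases, cathepsin S among them, trim it, and H2-DM then exchanges the remaining fragment for a peptide. Mice of the C57Bl/6 background make the A pair but no functional E alpha chain, so H2-Eb1 is transcribed there without its usual partner.

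Class II genes are switched on together through a pair of short promoter elements, the X box bound by RFX and the Y box bound by NF-Y, and CIITA is recruited to the proteins on them. The table of RefSeq promoters for GRCm38.p6, which runs from 250 bases before to 50 bases after each start, held windows for 5 of the 8 genes: H2-Aa, H2-Eb1, H2-DMa, H2-DMb1 and Ctss. The 3 sequences below are shown because in each of them the letters GNAACT (other strand AGTTNC), which share their first letters with the end of the X box core CCNAGNNAC, stand upstream of the Y box core GATTGG on the gene's strand. Capitals mark these letters.
H2-Aa: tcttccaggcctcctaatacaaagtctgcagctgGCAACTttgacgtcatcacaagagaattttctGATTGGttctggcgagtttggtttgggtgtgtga
H2-Eb1: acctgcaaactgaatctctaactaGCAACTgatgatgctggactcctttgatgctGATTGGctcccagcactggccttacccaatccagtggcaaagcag
H2-DMb1: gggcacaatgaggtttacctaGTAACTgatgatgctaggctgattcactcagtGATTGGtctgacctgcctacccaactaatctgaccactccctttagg
Each is 100 bases of chromosome 17 in GRCm38.p6, at chr17:34287839-34287938 on the minus strand for H2-Aa, chr17:34305752-34305851 on the plus strand for H2-Eb1 and chr17:34153076-34153175 on the plus strand for H2-DMb1. GATTGG began 49 bases before the start of H2-Aa, 60 before that of H2-Eb1 and 62 before that of H2-DMb1. Between the capitals lie 26, 25 and 26 bases in that order. The pair with 24 to 27 bases between, searched on the gene's strand, stood in 14 of 32851 promoters (0.0426%). Those 14 belong to 14 genes, H2-Aa, H2-Eb1, H2-DMb1 and H2-Eb2 among them. The letters of the pair were set after these windows had been read, so the share describes them and supports nothing.

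The cores searched first were wider. On either strand, the X box core CCNAGNNAC (other strand GTNNCTNGG) stood in 17.3% of all promoters, and of the 8 genes in H2-Aa, 180 bases before the start and so outside the stretch shown, and H2-DMb1. The Y box core GATTGG, or CCAATC on the other strand, stood in 16.1% of promoters and in H2-Aa, H2-Eb1, H2-DMb1 and 1 of the H2-DMa windows. The core of the interferon-stimulated element GAAANNGAA (TTCNNTTTC) stood in 8.56% of promoters and, among the members, in Ctss, which is shown because it alone of these windows held it.
Ctss: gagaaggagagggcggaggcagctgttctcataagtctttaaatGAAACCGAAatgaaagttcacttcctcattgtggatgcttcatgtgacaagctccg
This stretch is chr3:95526721-95526820 on the plus strand of GRCm38.p6, and its capitals mark the match, which begins 21 bases before the start. The gamma-activated site core TTCNNNGAA, which reads the same on both strands, stood in 8.3% of promoters and in no window of these genes. These matches are letters in a window and are not evidence of binding.

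Before the genes are described, the arrays need a word. H2-K1, the class I gene whose rise checks the labels, stood at 14.20, 13.11 and 14.31 in late muscle and at 14.67, 14.63 and 14.69 in early muscle, against 10.88, 10.47 and 10.21 in controls. It rose in late (3.35 ± 0.31, adjusted p = 0.00446) and in early mice (4.14 ± 0.31, adjusted p = 0.00115, limma), so every induced array carried the class I signal. The class II genes did not split the arrays that way. Early 3 stood apart from the other early arrays and late 1 from the other late arrays in most class II genes, in each case toward the controls, although both had high H2-K1. The class I list as a whole stood apart in the same arrays: the median of its 7 tested genes, as difference from the control mean, was -0.42, 0.56 and 0.32 in late 1, 2 and 3 and 0.43, 0.40 and -0.15 in early 1, 2 and 3, against 0.09, -0.05 and -0.05 in controls 1, 2 and 3. The class II results and the counts over all genes are therefore also given without each of these arrays. The other gene lists are given with all arrays in. Their counts are thus not comparable with the class II counts without early 3. The 10 markers of skeletal muscle had a summed level, on the log2 scale, of 18.71 to 18.83 in late, 18.64 to 18.67 in early and 18.67 to 18.80 in control arrays, and none of the 10 was called changed in any comparison.

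The class II chains, which form the peptide-binding pairs, were higher on average in both induced groups, but none passed the test. H2-Aa, the alpha chain of the A pair (chromosome 17, 34282744 to 34287823), stood at 9.87, 11.59 and 11.49 in late and at 12.13, 12.17 and 10.30 in early muscle, against 10.20, 9.80 and 9.69 in controls. All early arrays lay above all controls, by little for early 3, and late 1 lay among the controls. The means were 10.98 ± 0.97 in late, 11.53 ± 1.07 in early and 9.89 ± 0.27 in control muscle. The difference was 1.64 ± 0.58 for early minus control, or 3.11-fold, with an adjusted p of 0.199, and 1.09 ± 0.58 for late minus control, with an adjusted p of 0.369 (limma). The spread within both induced groups was wider than within the controls.

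H2-Ab1, the beta chain of the A pair (chromosome 17, 34263227 to 34269418), showed the same order of arrays at the top. It stood at 7.11, 9.04 and 8.93 in late and at 9.67, 9.95 and 8.02 in early muscle, against 7.67, 7.37 and 7.08 in controls. Early arrays did not overlap the controls, whereas late 1 lay between control 2 and control 3. Early minus control was 1.84 ± 0.61, or 3.58-fold (limma, adjusted p = 0.181), and late minus control 0.99 ± 0.61 (adjusted p = 0.428).

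H2-Eb1, the E beta chain (chromosome 17, 34305867 to 34316674), had the largest early difference of the 6 tested members. Its levels were 7.61, 9.63 and 9.59 in late and 10.24, 10.53 and 8.26 in early muscle, against 8.03, 7.52 and 7.45 in controls. Again early 3 was the lowest early array and still above each control, and late 1 lay inside the control range. Early minus control was 2.01 ± 0.68, or 4.03-fold (limma, adjusted p = 0.187). Late minus control was 1.28 ± 0.68, or 2.42-fold (adjusted p = 0.368).

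Cd74, the invariant chain that guards the groove of new class II pairs (chromosome 18, 60803849 to 60812652), followed the chains. It stood at 9.69, 11.07 and 11.11 in late and at 11.77, 11.99 and 10.26 in early muscle, against 10.14, 9.63 and 9.39 in controls. Early 3 exceeded the highest control by little, and late 1 lay within the control range. Early minus control was 1.62 ± 0.51, or 3.08-fold (limma, adjusted p = 0.172), and late minus control was 0.90 ± 0.51 (adjusted p = 0.398).

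**Figure D1:**
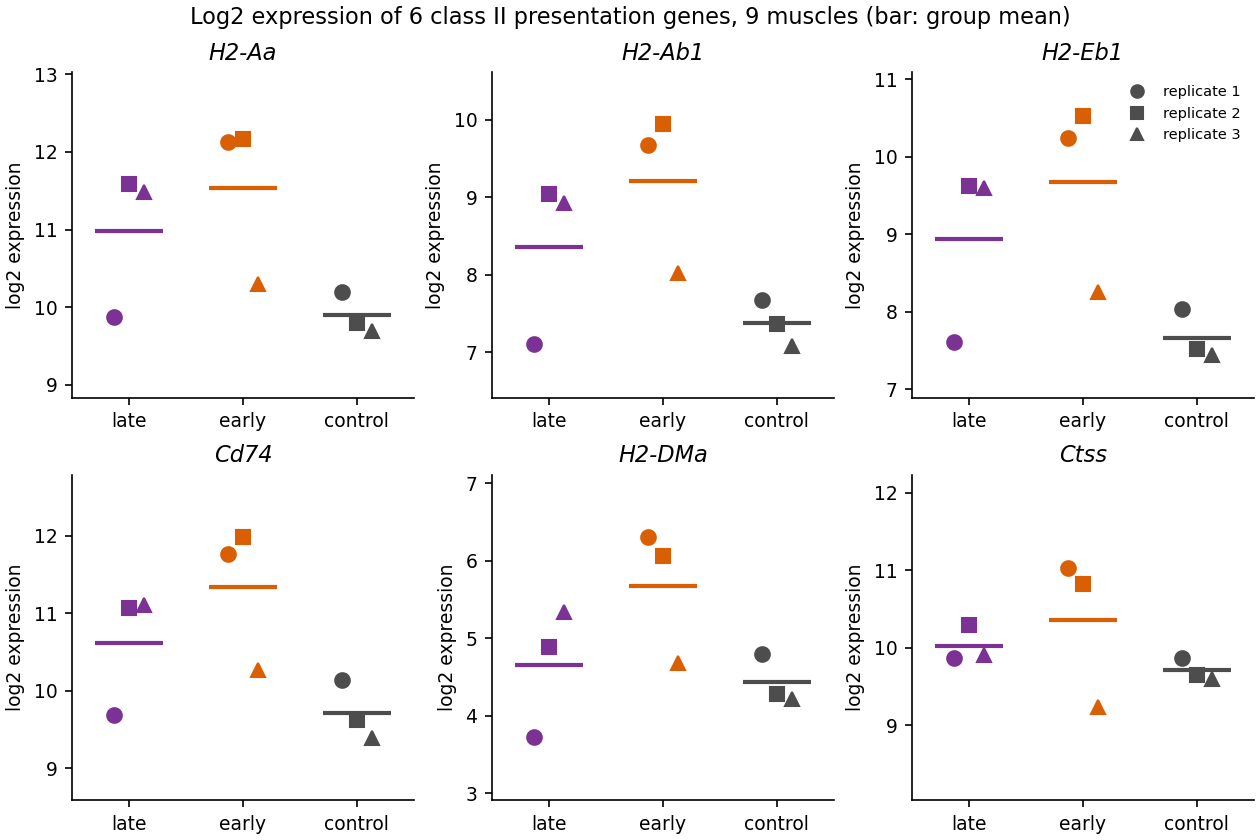
Log2 expression (vertical axis) of the 6 tested class II presentation genes in late, early and control muscle; each point is 1 array, its shape the replicate number and the bar the group mean. In H2-Aa, H2-Ab1, H2-Eb1 and Cd74 early 1, early 2, late 2 and late 3 form the upper cluster, early 3 lies just above the controls and late 1 lies among them.

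The peptide editor H2-DM was dimmer and its late arrays stood nearer the controls. H2-DMa, its alpha chain (chromosome 17, 34119693 to 34139101), stood at 3.72, 4.88 and 5.34 in late and at 6.30, 6.06 and 4.68 in early muscle, against 4.79, 4.29 and 4.22 in controls. It passed the filter, a log2 value above 5 in at least 3 arrays, only through early 1, early 2 and late 3, so that a difference of those arrays from the controls was built into its being tested. Early 3 lay within the control range and late 1 below all controls. Early minus control was 1.25 ± 0.50 (limma, adjusted p = 0.236), and 0.79 when values under the floor of 5 were set to it. Late minus control was 0.22 ± 0.50 (adjusted p = 0.859), and 0.11 counted from the floor. The other H2-DMa probe set was dim in every array.

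H2-DMb1, the beta chain of H2-DM (chromosome 17, 34153191 to 34160229), could not be read apart from H2-DMb2. The brighter shared probe set stood at 5.72, 5.78 and 5.79 in late and at 6.40, 6.39 and 5.75 in early muscle, against 5.70, 5.77 and 5.79 in controls. Only early 1 and early 2 left the narrow range of the other 7 arrays. With probe sets naming several genes kept in the fit, early minus control was 0.43 ± 0.18 (limma, adjusted p = 0.258 over 10016 features) and late minus control 0.01 ± 0.18 (adjusted p = 0.985). The probe sets that name H2-DMb2 alone were under the floor in every array.

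Ctss encodes cathepsin S, which makes the last cuts in the invariant chain (chromosome 3, 95526786 to 95556405). It stood at 9.87, 10.29 and 9.91 in late and at 11.03, 10.82 and 9.24 in early muscle, against 9.87, 9.65 and 9.60 in controls. Early 1 and early 2 were the highest arrays, while early 3 was the lowest of all 9. Early minus control was 0.66 ± 0.41 (limma, adjusted p = 0.405) and late minus control 0.31 ± 0.41 (adjusted p = 0.728).

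Ciita, which drives the other class II genes (chromosome 16, 10480014 to 10531064), was not measured above background. Its 3 probe sets lay between 2.02 and 2.84 in every array, under the floor of 5, and were not tested. With GCRMA such dim probe sets have nearly equal values, so no direction was read from them.

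**Figure D2:**
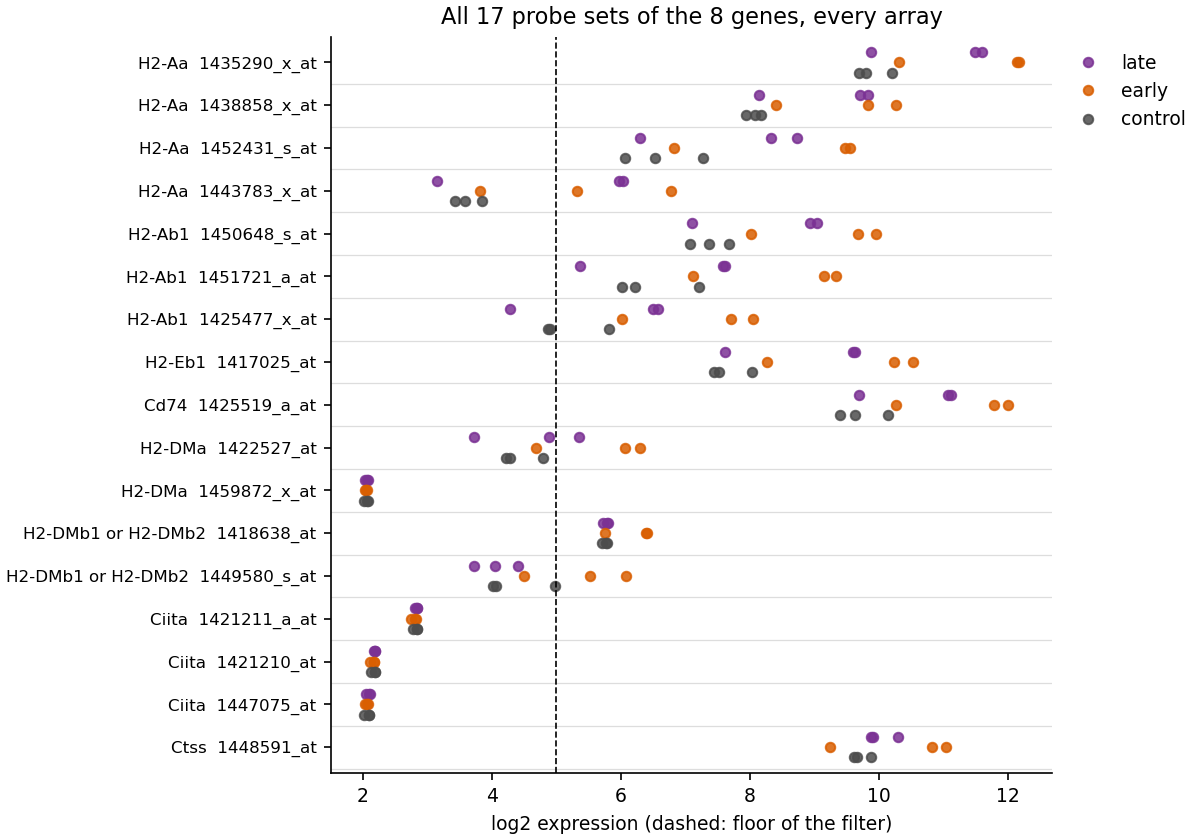
Log2 expression (horizontal axis) of all 17 probe sets of the 8 genes, 1 row per probe set and 1 point per array, with late above early above control within a row and the filter's floor of 5 dashed. The 3 Ciita probe sets lie at the left edge, and the probe sets of one chain repeat the same spread of early and late arrays.

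Across the 6 tested genes the counts were as follows. In early minus control 0 of 6 passed at an adjusted p under 0.05, where 1.19% of all genes tested did (115 of 9697). At an unadjusted p under 0.05, H2-Aa, H2-Ab1, H2-Eb1 and Cd74 were higher and Ctss was not called, where 8.64% of all genes were higher at that threshold. H2-DMa was also under it, but it entered the test only through induced arrays, so it is not counted here. Every early array lay above every control array in 4 of the 6, H2-Aa, H2-Ab1, H2-Eb1 and Cd74, against 9.63% of all genes. The median difference of the 6, H2-DMa included, was 1.63, beside -0.03 over all genes.

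In late minus control 0 of 6 passed, where 0.206% of all genes did (20 of 9697), and 0 of 6 did so at an unadjusted p under 0.05. No member had all its late arrays above all controls, a pattern found in 16.0% of all genes. The median difference was 0.95, beside 0.01 over all genes. The controls are the same 3 arrays in both comparisons.

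In late minus early 0 of 6 passed, where 11.5% of all genes did (1119 of 9697), and 0 of 6 did so at an unadjusted p under 0.05. The differences were -0.55 ± 0.58 for H2-Aa, -0.85 ± 0.61 for H2-Ab1, -0.73 ± 0.68 for H2-Eb1 and -0.72 ± 0.51 for Cd74. For H2-DMa the difference was -1.03 ± 0.50 and for Ctss -0.34 ± 0.41, so all 6 were lower in late muscle, with a median of -0.72 beside 0.03 over all genes. Adjusted p-values in this comparison ran from 0.177 for H2-DMa to 0.578 for Ctss (limma).

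**Figure D3:**
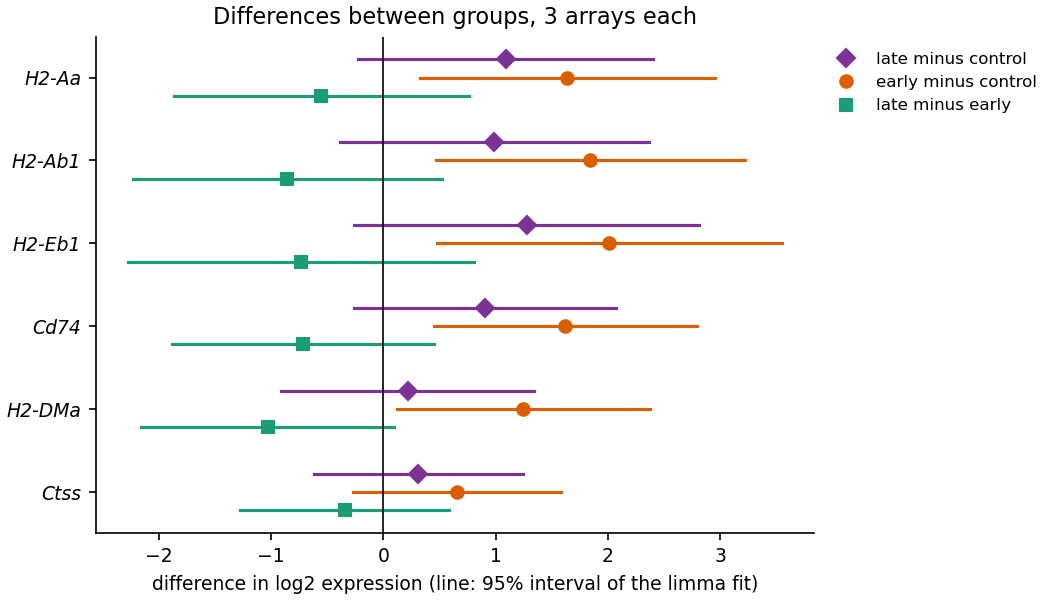
Log2 differences between groups (horizontal axis) for the 6 tested genes, late minus control, early minus control and late minus early, with the 95% interval of the limma fit as a line. H2-Eb1 has the largest early minus control value (2.01) and Ctss the smallest (0.66); the late minus control and late minus early intervals all cross 0.

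How much 1 array decided was read by leaving each out in turn. Without early 3, 6 of 6 genes passed in early minus control, with differences of 2.72 for H2-Eb1, 2.44 for H2-Ab1, 2.25 for H2-Aa, 2.16 for Cd74, 1.75 for H2-DMa and 1.22 for Ctss (limma, adjusted p between 0.00366 and 0.0278). The count over all genes then was 1756 in place of 115. Without early 3, Ctss (-0.91, adjusted p = 0.00784) and H2-DMa (-1.53, adjusted p = 0.0303) also passed in late minus early (limma). There 2959 of all 9697 genes then passed, so 2 of 6 is close to the share over all genes. In both comparisons H2-DMa had entered the test only through early 1, early 2 and late 3. Its passing was therefore partly built into the filter. Leaving out any other array, late 1 included, gave 0 members in each comparison. Without late 1, late minus control was 1.65 for H2-Aa, 1.61 for H2-Ab1, 1.94 for H2-Eb1 and 1.37 for Cd74 (adjusted p = 0.255, 0.258, 0.245 and 0.291 in that order), and late minus early was 0.01 for H2-Aa. The calls therefore turned on early 3, and the late size on late 1.

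The order of the arrays was shared by the members. In all 6 tested genes early 1 and early 2 were the 2 highest arrays and late 2 and late 3 completed the 4 highest. For H2-DMa the high rank of early 1, early 2 and late 3 was partly built into the filter. The lowest of these 4 arrays exceeded the next array, control 1, by only 0.04 in Ctss and 0.09 in H2-DMa. In the 3 chains and Cd74 that gap, to early 3, ran from 0.81 to 1.33. Late 1 was under the control mean in 5 of the 6, Ctss being the exception, and early 3 was over it in 5 of the 6, again all but Ctss. Control 1 was the highest control in all 6. Averaged over the 3 chains, the difference from the control mean was -0.12, 1.78 and 1.69 in late 1, 2 and 3 and 2.37, 2.57 and 0.55 in early 1, 2 and 3, against 0.32, -0.08 and -0.24 in controls 1, 2 and 3. H2-K1 did not order the arrays this way: late 2 had the lowest H2-K1 of the induced arrays and high class II levels, while late 1, with H2-K1 at 14.20, had class II levels like those of controls. Other class I genes, named after their values were seen, did share the order in large part. B2m, the light chain of class I, stood at 12.18, 13.68 and 13.44 in late and at 13.51, 13.85 and 12.65 in early muscle, against 13.12, 13.07 and 13.18 in controls. H2-D1, a class I heavy chain, stood at 11.65, 12.78 and 13.02 in late and at 12.75, 13.44 and 12.56 in early muscle, against 12.11, 12.18 and 12.33 in controls. In both genes late 1 was the lowest array and early 3 the lowest early array, and neither passed in any comparison. The split of the arrays was therefore not particular to class II.

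The several probe sets of one chain gave like values. The 4 probe sets of H2-Aa ran from 1.44 to 1.99 in early minus control and from 1.09 to 1.43 in late minus control. For H2-Ab1 the 3 probe sets ran from 1.84 to 2.07 in early minus control, but from 0.38 to 0.99 in late minus control. Of the 11 probe sets that name 1 member and passed the filter, 11 were higher in early and 11 in late than in control muscle. None was higher in late than in early. Over all genes tested, 45.9% were higher in early and 51.2% in late than in control muscle, and 53.0% in late than in early. The H2-DMa probe set and the dimmest of H2-Aa exceeded the floor only in induced arrays. For them a higher level than in controls was built into the filter. Tested over all 34945 probe sets naming 1 gene, none passed, and 7, 0 and 0 had an unadjusted p under 0.05 in early minus control, late minus control and late minus early (smallest adjusted p = 0.411, 0.604 and 0.323, limma).

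The rest of the class II pathway was read from lists that hold the members' partners. The chains and modifiers beyond the 8, H2-Oa and H2-Ob, which restrain H2-DM, with H2-DMb2, H2-Eb2 and H2-Ea, were under the floor in every array. Of 8 regulators that bind class II promoters, all measured, 0 passed in early minus control, 4 being positive and 4 negative, and 0 in late minus control. Nfyb, a subunit of the Y box factor NF-Y, rose in late minus early (1.18 ± 0.31, limma, adjusted p = 0.0448), 1 of 8 where 11.5% of all genes were called. Its levels were 9.19, 8.24 and 8.43 in late and 7.10, 7.13 and 8.07 in early muscle, against 8.07, 7.99 and 8.05 in controls. Thus the early arrays highest in class II were the lowest in Nfyb. Creb1, which binds next to the X box, was -0.45 ± 0.16 in early minus control (adjusted p = 0.205).

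Endosomal proteases and processing enzymes that prepare peptides had their highest median levels in early 1 and early 2, and late 2 and late 3 were not high with them. None of 11 passed in any comparison. In early minus control 9 of 11 were positive, with a median of 0.25, and in late minus control 3 of 11, with a median of -0.27. Ifi30, the thiol reductase that unfolds antigens, stood at 8.84, 8.63 and 8.56 in late and at 11.30, 11.06 and 8.66 in early muscle, against 9.14, 8.92 and 8.92 in controls (early minus control 1.35 ± 0.58, limma, adjusted p = 0.262). Lgmn, which encodes legumain, an endosomal endopeptidase, was 7.95, 7.86 and 7.19 in late and 9.26, 9.23 and 7.83 in early muscle, against 8.23, 7.95 and 7.94 in controls (0.73 ± 0.38, adjusted p = 0.326). In both genes early 1 and early 2 were the only arrays above the controls. Ctsd, encoding cathepsin D, had the smallest p of the list in early minus control (0.64 ± 0.27, adjusted p = 0.257). Ctsl, encoding cathepsin L, was 0.38 ± 0.22 (adjusted p = 0.381). Of the ubiquitin ligases that remove class II from the surface, Marchf8 was tested (early minus control 0.01, late minus control 0.42 ± 0.18, adjusted p = 0.281) and Marchf1 was under the floor.

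Interferon gamma is the classical inducer of class II outside immune cells. Its own gene, Ifng, and Socs1, which dampens its signal, were under the floor in every array. Of 13 tested genes of its pathway, 0 passed in early minus control (median 0.21) and 0 in late minus control (median 0.19). By array, their median difference from the control mean was -0.14, 0.72 and 0.38 in late 1, 2 and 3. It was 0.17, 0.48 and -0.03 in early 1, 2 and 3, against 0.045, -0.024 and 0.049 in controls 1, 2 and 3. In late 1, 2 and 3, 6, 11 and 11 of the 13 were above the control mean. The list as a whole was thus lowest in late 1 and early 3 within their groups, as class II was. Its part in the result was not tested. Cxcl10, an interferon-induced chemokine named after its values were seen, was not tested because only early 1 and early 2 exceeded the floor. It stood at 3.63, 3.65 and 3.72 in late and at 8.97, 10.26 and 3.68 in early muscle, against 3.63, 3.66 and 3.69 in controls, so the early arrays highest in class II were the ones with Cxcl10. In late minus early Jak2, a kinase of the receptor, rose (1.39 ± 0.33, limma, adjusted p = 0.0341) and Ifngr2, a receptor chain, fell (-1.32 ± 0.32, adjusted p = 0.0368). With 11.5% of all genes called in that comparison, 2 of 13 is near the share over all genes. Against controls Jak2 was -0.84 ± 0.33 in early (limma, adjusted p = 0.227) and 0.55 ± 0.33 in late muscle (adjusted p = 0.409). Ifngr2 was 0.66 ± 0.32 in early (adjusted p = 0.303) and -0.66 ± 0.32 in late muscle (adjusted p = 0.327). Ifngr1, the other receptor chain, was 0.62 ± 0.26 in early minus control (adjusted p = 0.247) and Irf8 0.42 ± 0.28 (adjusted p = 0.431).

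Chosen after their values were seen, 3 interferon-induced GTPases are given because they split the late arrays as the class II genes did. Igtp stood at 6.67, 8.79 and 8.70 in late and at 8.35, 8.25 and 6.84 in early muscle, against 7.37, 7.59 and 7.45 in controls. Iigp1 stood at 5.94, 9.43 and 9.18 in late muscle and at 8.22, 8.66 and 7.54 in early muscle, against 7.60, 8.26 and 8.16 in controls. Gbp2 was 7.31, 9.44 and 9.43 in late and 8.30, 8.51 and 8.51 in early muscle, against 8.43, 8.51 and 8.55 in controls. In all 3 genes late 2 and late 3 were the highest arrays and late 1 the lowest, and none passed in any comparison (limma). In early arrays the values of Gbp2 stayed near the controls.

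**Figure D4:**
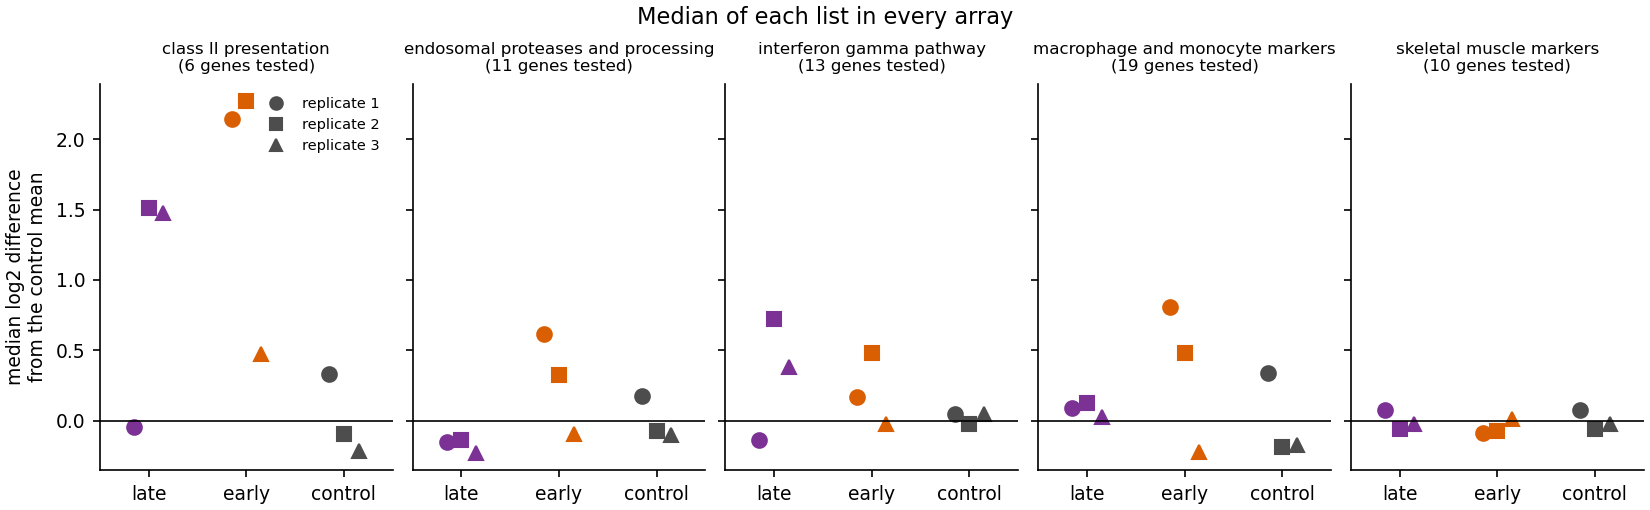
Median log2 difference from the control mean (vertical axis) over the tested genes of 5 lists, 1 point per array, for late, early and control muscle. The class II median is 2.14 and 2.27 in early 1 and 2 and 1.51 and 1.47 in late 2 and 3; the macrophage median is 0.81 and 0.48 in early 1 and 2 and at most 0.12 in late arrays, and the skeletal muscle median stays near 0.

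Markers of the cells that make class II constantly were read beside these values. In bulk muscle, fewer cells of a type and less RNA per cell cannot be told apart. Of 23 macrophage and monocyte markers on the array 19 were tested, and 0 passed in early minus control (17 positive, median 0.38) or late minus control (10 positive, median 0.06). Their summed log2 level was 13.04 to 13.25 in late, 12.90 to 14.64 in early and 13.02 to 13.44 in control arrays, and Itgam and Cx3cr1 were under the floor in every array. Their median difference from the control mean was 0.09, 0.12 and 0.02 in late 1, 2 and 3 and 0.81, 0.48 and -0.22 in early 1, 2 and 3, against 0.34, -0.19 and -0.17 in controls 1, 2 and 3. These markers thus moved with class II within the early group, where their part in the result was not tested. In late 2 and late 3 class II was high and this median was close to that of late 1, but single markers split there. Late 1 was the lowest late array in Adgre1, Csf1r, Cd14, Mrc1, Aif1, C1qa, C1qb and C1qc, as in class II. It was the highest in Itgb2, Lyz2, Tyrobp, Fcer1g, Ptprc, Mpeg1, Laptm5 and Lgals3, and between the others in Cd68, Fcgr3 and Cd163. Csf1r stood at 9.57, 10.32 and 10.32 in late 1, 2 and 3, and Itgb2 at 7.43, 5.93 and 5.87. The part of these markers in the late result was not tested. In late minus early 1 of the 19 was called, under the share of 11.5% over all genes. It was C1qa, a complement subunit made by macrophages, which was lower in late muscle (-1.70 ± 0.46, limma, adjusted p = 0.0468).

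Named after their values were seen, Cd68, a lysosomal macrophage marker, was high in early 1 and early 2 only, and Mpeg1, a macrophage pore protein, also in late arrays. Neither was lowest in late 1 among the late arrays, unlike Adgre1, Csf1r, Mrc1, Aif1, C1qa, C1qb and C1qc. Cd68 stood at 7.17, 7.30 and 7.08 in late and at 12.06, 11.17 and 6.23 in early muscle, against 7.90, 6.74 and 7.15 in controls (early minus control 2.55 ± 1.25, limma, adjusted p = 0.305). Mpeg1 stood at 6.98, 6.81 and 6.66 in late and at 8.13, 8.11 and 5.72 in early muscle, against 5.30, 5.05 and 5.86 in controls (1.92 ± 0.58, adjusted p = 0.158). Every late array was above every control in Mpeg1, late 1 included, a pattern found in 16.0% of all genes. Class II did not show it.

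Dendritic cell and lymphocyte markers were mostly dim. Of 11 dendritic cell markers 3 were tested and 7, Flt3, Itgax and Xcr1 among them, were under the floor in every array; the summed log2 level of the 3 was 7.79 to 8.37 in late, 7.95 to 8.62 in early and 8.08 to 8.71 in control arrays. Clec10a, the brightest of the 3 in every array, was lower on average in both induced groups. In early 2, which had the highest early sum, Cd83 at 7.05 and Zbtb46 at 6.64 stood near Clec10a at 7.33. Early minus control and late minus control were -0.47 ± 0.29 and -0.47 ± 0.29 for Clec10a and 0.14 ± 0.20 and 0.23 ± 0.20 for Zbtb46. Cd83, which activated dendritic cells carry, stood at 4.56, 5.43 and 5.29 in late and at 6.53, 7.05 and 5.09 in early muscle, against 4.40, 4.74 and 5.32 in controls (early minus control 1.40 ± 0.48, limma, adjusted p = 0.193), so it was highest in early 1 and early 2 as class II was. Cd209a, below the filter, stood at 3.49, 4.68 and 5.13 in late and at 4.43, 3.65 and 3.65 in early muscle, against 3.60, 2.93 and 3.05 in controls, and was highest in late 2 and late 3. Both were named after their values were seen, and their part in the result was not tested. Of 8 B cell markers 7, with Ms4a1, Cd79a and Cd79b, were under the floor in every array. The other, Ighm, the immunoglobulin mu chain, stood at 7.86, 11.59 and 12.28 in late and at 6.05, 7.12 and 10.92 in early muscle, against 10.99, 10.51 and 11.13 in controls. Within the late group Ighm was high in late 2 and late 3 as class II was, and within the early group it was high in early 3, where class II was low; its part in the result was not tested. Of 11 T and NK cell markers 8 were under the floor in every array, Cd3e, Cd4 and Cd8a among them. The 2 tested, Cd28 and Thy1, were lower on average in both induced groups, and neither passed. Late minus control was -1.83 ± 0.51 for Cd28 (limma, adjusted p = 0.148) and -1.30 ± 0.54 for Thy1 (adjusted p = 0.272). Early minus control was -1.01 ± 0.51 and -0.56 ± 0.54 in that order. Thy1 stood at 6.66, 8.98 and 8.97 in late 1, 2 and 3. Of 10 endothelial markers 0 passed against controls in either induced group. In late minus early 1 of the 10 was called, where 11.5% of all genes were. It was Vwf, von Willebrand factor (1.04 ± 0.24, limma, adjusted p = 0.0327). Against controls Vwf was -0.92 ± 0.24 in early muscle (adjusted p = 0.122) and 0.11 ± 0.24 in late muscle (adjusted p = 0.843). Of 4 adipocyte markers tested 0 passed in any comparison, with a median of -1.22 in early minus control and -0.61 in late minus control. Of the costimulatory genes Cd80, Cd86, Cd40 and Cd274 were under the floor in every array, and Icam1, an adhesion molecule, was 0.53 ± 0.24 in early minus control (limma, adjusted p = 0.273).

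The genes outside the 8 whose levels ran most like the mean of the 6 were ranked by Pearson r over the 9 arrays, as a description. The closest was Ccl9, a chemokine made by myeloid cells (r = 0.968), followed by Plekha1 (0.962), Cd55, which limits complement (0.948), Hsph1, a heat shock protein (0.940), and Stau2 (0.938). Wapl, Ctnna3, Nbdy, Mllt11 and Snx3 completed the 10 (0.931 to 0.919). Ccl9 stood at 8.23, 8.93 and 8.86 in late and at 9.19, 9.14 and 8.24 in early muscle, against 8.50, 7.98 and 8.20 in controls. None of the 10 passed in early minus control or late minus control. The 9 arrays share their group structure and 4 of them stand above the rest, and with group means removed r ran from 0.882 to 0.971.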

How the data were processed

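Total RNA of quadriceps muscle was labelled from an oligo(dT) primer and hybridised to Affymetrix arrays, 1 per mouse, per the labels' protocols. The submitters' processing notes name GCRMA for the deposited log2 values; it corrects background by base composition and makes array distributions alike, and its version is not given in the sources used here. Array medians lay between 3.41 and 3.45. The number of arrays, 3 per group, limits the precision.

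The platform annotation named the probe sets (34945 naming 1 gene, 932 several, 9224 none). Those naming 1 gene and above 5 in at least 3 arrays passed (16048, with the 64 control probe sets left out), and the brightest per gene was kept. One model of 3 group means was fitted with limma 3.58.1 in R 4.3.3 (6 residual and 2.84 prior degrees of freedom), checked on simulated data. P-values measure the spread between mice, 1 array per mouse, in which animal and technical variation cannot be told apart. An exact test of 3 against 3 cannot go below 0.1 and was not used.

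The members, lists and motifs were chosen with earlier results of these data known. Genes named are the 8, up to 4 per pathway list with the smallest p in early minus control, and the 10 most alike; others are said to be chosen after their values were seen, or passed in a count. No label says that replicate numbers pair animals, so the main model has no pairing, and a block by replicate number was an alternative. Deviations of same-numbered late and early arrays from their group means correlated over genes at 0.168, 0.201 and 0.16. Early with control gave 0.35, 0.11 and -0.0391, and late with control 0.0847, -0.165 and -0.11. Alternatives covered filter, probe set choice, normalization, groups fitted, block, weights, trend and single arrays left out.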

Additional observations from a re-analysis of the deposited data

Results flagged for a closer look

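Both probe sets shared by H2-DMb1 and H2-DMb2 lay outside the main comparisons, since each names more than 1 gene, and both had an early mean above the highest control array. The brighter averaged 6.18 in early muscle, against a highest control of 5.79. The dimmer averaged 5.36 in early muscle, against a highest control of 4.99. In both the early mean rested on early 1 and early 2: early 3 stood at 5.75 and 4.49, within the control range. The late arrays ran from 5.72 to 5.79 on the brighter and from 3.72 to 4.40 on the dimmer.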

How the results depend on the processing

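No class II gene passed under the main settings in any comparison, and none did under the other filters, probe set choices, normalizations, groups fitted, variance trend or the replicate block. Array weights gave 6, 4 and 1 of the genes in early minus control, late minus control and late minus early. H2-DMa, tested only through induced arrays, was among the 6 and was the 1. Of the 15 probe sets naming 1 member, fitted without the filter, array weights gave 15, 11 and 9 in the same order. The 15 include 4 under the filter, the 3 Ciita probe sets among them, so the early minus control count includes calls at background. Leaving out 1 array gave 0 to 6, 0 to 0 and 0 to 2 genes and 0 to 2, 0 to 0 and 0 to 1 probe sets in the same order, the highest always without early 3. Over all genes the counts of 115, 20 and 1119 became 3335, 1037 and 3534 with array weights, 61, 12 and 38 with only 2 groups fitted, and 62, 5 and 1114 with the replicate block. Without the filter, early minus control gave 56 and late minus early 584 genes; without probe sets that may read other genes, late minus control gave 12. Leaving out 1 array gave 6 to 1756, 5 to 59 and 143 to 2959 genes. The sign of 2 differences turned when 1 array was left out: H2-Aa in late minus early ran from -1.17 to 0.0073, the highest being without late replicate 1, and H2-DMa in late minus control ran from -0.13, without late replicate 3, to 0.68. Of the 10 genes most like the class II mean, 1 to 7 were kept when 1 array was left out. The cause of these shifts was not tested. After GCRMA dim probe sets hardly vary, so Ciita could not be compared at this signal.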
